A study of Mus musculus with 8 samples.

Results

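Gene expression was measured on 8 arrays of mouse bone marrow derived macrophages, and 4 of these arrays came from cells treated with IFN-gamma. Within those 4, 1 array had both partners of vitamin D signalling, an intact receptor gene and added hormone. This array, from wild-type macrophages given IFN-gamma and calcitriol (1alpha,25(OH)2D3), was set against the other 3 IFN-gamma arrays, which lacked hormone, receptor or both. The 3 comparison arrays were wild type with IFN-gamma, Vdr-/- with IFN-gamma, and Vdr-/- with IFN-gamma and calcitriol. Comparison signals are always given in that order. The 4 arrays were chosen by their labels and no measured value entered the choice. Vdr-/- cells came from mice with the Vdr tm1 Rge knockout allele. The labels call all samples bone marrow derived macrophages, while the protocol text attached to them also describes peritoneal cells drawn out with thioglycolate. Marrow cells of both genotypes were grown with M-CSF at 50 ng/ml for 7 days, and treated cells were then kept with the agents for 24 to 48 hours. How much of each agent was used, and which array got which time, is not stated in the labels. The other 4 arrays repeated the genotype and calcitriol combinations without IFN-gamma. Each group held 1 array, and the labels do not say whether the arrays came from separate mice or cultures. The 3 comparison arrays are therefore no replicates of 1 condition, and their spread includes genotype and calcitriol in cells without the receptor.

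The vitamin D receptor, encoded by Vdr, is a nuclear receptor that pairs with a retinoid X receptor and binds DNA when calcitriol occupies it. Its direct targets include Cyp24a1, the enzyme that degrades calcitriol, and macrophages can make calcitriol themselves through Cyp27b1. IFN-gamma induces antigen presentation genes, guanylate-binding proteins and chemokines, and calcitriol is known to temper parts of this activation. The comparison asks how the IFN-gamma state of macrophages differs when the liganded receptor is present.

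Vdr itself read highest where receptor and ligand were both present. Its brighter probe set read 386 on that array and 82.9, 2.5 and 23.6 on the comparison arrays. A further Vdr probe set read 227 against 84.4, 45.6 and 25.0. Both were above all 3 comparison arrays, and the knockout arrays were not free of signal. Where these probe sets lie relative to the deleted part of Vdr is not known here. The log2 difference of the brighter probe set was 3.63 (SE 1.05, limma adjusted p = 0.15), which missed the threshold. For this gene the mean of the 3 includes the knockout arrays, so the difference joins genotype with hormone. From the wild-type IFN-gamma array alone the distance was 2.22 log2. Cyp24a1 read 162 against 43.1, 21.0 and 3.1, again above all 3, but with too little signal on the comparison arrays to be tested. Its second probe set, at 60.6 against 4.4, 8.2 and 34.9, was also highest on that array. Cyp27b1 read 73.7 against 25.0, 19.8 and 2.5. On the arrays without IFN-gamma, the brighter Vdr probe set read 5.3 on the one labelled wild-type untreated and 63.2 on the one labelled Vdr-/- untreated. This order is the reverse of what the labels would lead one to look for. It cannot decide whether these labels are exchanged, as 63.2 lies near the median of all signals (59.1) and the place of the probe set is unknown. Exchanging these labels leaves the comparison of IFN-gamma arrays as it is.

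The IFN-gamma arrays had median signals of 53.5 to 59.6, and the deposited values have the same trimmed mean on every array. Log2 signals of the array with receptor and ligand correlated with those of the comparison arrays at Pearson's r of 0.811 to 0.841, over 14947 probe sets. The comparison arrays correlated at 0.844 to 0.886 among themselves (probe sets are no independent replicates). The Gapdh control ratio of 3' to 5' signal, which rises as RNA is truncated, was 1.65 with receptor and ligand. It was 1.04, 3.06 and 1.07 on the comparison arrays, so the array of interest lay inside their range, while its actin ratio of 1.81 lay above their 1.48 to 1.63.

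With the filter on signal used here, the limma test called more probe sets lower than higher. The balance of values outside the range also depended on the settings. Of 14947 probe sets that reached a signal of 59.1, the median of all signals, on any of the 4 arrays, 721 (4.82%) stood above the highest comparison array by at least 1 log2. A further 848 (5.67%) stood at least 1 log2 below the lowest. Signals under 15.5, the 25th percentile, counted as 15.5 throughout, and this floor is used wherever a floor is named. With any distance allowed, 30.3% stood above and 26.1% below. The order also turned with the floor at the 40th percentile (461 above and 360 below), with a distance of 2 log2 (178 and 156) and with no filter on signal (1209 and 941). Limma tested 10561 probe sets with enough signal and called 145 at an adjusted p of 0.05 (1.37%), 40 higher (0.379%) and 105 lower (0.994%). All 145 lay outside the range of the comparison arrays, and 143 by at least 1 log2. They covered 30 named genes with a higher probe set and 82 with a lower one. Of 58 called genes with further tested probe sets, 51 had log2 differences of 1 sign in all of them, and 41 had all of them outside the range on the same side. The spread rested on 2 residual degrees of freedom, with the array of interest taken to vary like the other 3. An exact permutation of 1 array against 3 cannot go below p = 0.25. Without the filter on signal, 881 probe sets were called higher and 73 lower. The filter dropped probe sets with more than 1 comparison array at the floor, but kept those with only the array of interest there. Among values at least 1 log2 outside the range, 491 above and 290 below were not tested. The excess of lower calls therefore cannot be told apart from this filter.

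The number of calls depended on which comparison arrays entered the test. Without the Vdr-/- array with IFN-gamma and calcitriol, 10 calls remained, 6 higher and 4 lower. They included Hopx (3.87 log2, limma adjusted p = 0.0373), Crip1 (2.70), a Ccl6 probe set (3.87), Rnase4 (-3.63), Clec4a2 (-3.51), 1600014C10Rik (-3.84) and a Pltp probe set (-3.58), all at that p. Every other called probe set was lost there. Among 52 calls of genes named by the rule, 47 were lost, at limma adjusted p of 0.0603 to 0.386, and none of their log2 differences shifted by more than 0.44. Leaving out the Vdr-/- array with IFN-gamma alone gave 271 higher and 407 lower, and leaving out the wild-type array with IFN-gamma gave 93 and 192. Without an intensity trend in the spread, limma called 0 probe sets, against 1272 at an unadjusted p under 0.05.

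Among called genes, the 5 largest gaps above the comparison arrays belonged to Hopx, Ifitm6, Dnmt3a, Ccl6 and Pdgfa. Hopx, a homeodomain protein that does not bind DNA itself, read 1999.7 with receptor and ligand and 152, 124 and 94.2 without. That is 16.5-fold above the mean of the 3 (4.05 log2, SE 0.383, limma adjusted p = 0.00247). Ccl6, a CC chemokine of mice, read 9237 against 1321, 395 and 532, a log2 difference of 3.82 (SE 0.54, adjusted p = 0.00993). Its second probe set read 3981 against 288, 258 and 173.5. From the nearest comparison array, the wild-type one for both genes, Hopx stood 13.1-fold apart and Ccl6 6.99-fold by its brighter probe set. Dnmt3a, a methyltransferase that sets new DNA methylation, read 2000.4 against 262.5, 117 and 142 (3.62 log2, SE 0.457, adjusted p = 0.00793). Of its 5 tested probe sets, 2 were called and 2 lay within or just under the range, at 117.5 against 118, 118 and 122 and 116 against 97.6, 179.8 and 126. Pdgfa, the A chain of platelet-derived growth factor, read 952 against 133, 150 and 86.3 (2.99 log2, adjusted p = 0.00958). Ifitm6, of the interferon-induced transmembrane family, read 678 against 8.0, 64.7 and 39.9, with the wild-type IFN-gamma array at the floor (adjusted p = 0.0421).

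Crip1, a small LIM domain protein, had the highest signal of the called higher genes. It read 14980.4 with receptor and ligand and 2557, 2072 and 2752 on the comparison arrays, which differed little among themselves. The log2 difference was 2.62 (SE 0.236, limma adjusted p = 0.00247). Its promoter is shown because it alone, among the genes called higher, held a direct repeat of GNTCA with 4 bases between the copies, of the kind that the vitamin D receptor and its partner bind. These letters, in which N is any base, were searched on both strands of the 250 bases before each start. They occurred in 1 of 27 called higher genes with a promoter entry (3.70%), in 0 of 61 called lower genes, and in 172 of 27025 genes of the table (0.636%). The sequence is from RefSeq, build GRCm38.p6, chr12:113151762-113152011 on the plus strand, with the match in capitals.

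Crip1: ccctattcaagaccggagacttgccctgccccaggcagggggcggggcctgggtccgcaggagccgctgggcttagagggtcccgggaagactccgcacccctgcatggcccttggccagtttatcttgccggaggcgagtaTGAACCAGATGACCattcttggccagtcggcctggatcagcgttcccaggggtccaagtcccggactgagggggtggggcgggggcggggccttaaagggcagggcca

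The match begins 108 bases before the annotated start and reads on the opposite strand to the gene. A match of letters describes this window only.

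The other 9 genes with the largest called gaps above the comparison arrays were led by Jdp2, a repressor of the AP-1 family. Jdp2 read 1829 against 357, 197 and 202 (2.92 log2, limma adjusted p = 0.00958). Itgax, the CD11c chain of complement receptor 4, read 1279 against 263, 278 and 108 (2.68 log2, adjusted p = 0.0395). Stt3b, a catalytic subunit of the oligosaccharyltransferase, read 3767 against 812, 765 and 834.5 (2.23 log2, adjusted p = 0.00511). The comparison arrays lay closest together for Stt3b and for Mt1, the metal-binding metallothionein, which read 3723 against 834, 742 and 742 (2.27 log2, adjusted p = 0.00511). Plk2, a polo-like kinase, stood at 1627 against 234, 418 and 345.5. Sdc1, the heparan sulfate proteoglycan syndecan 1, stood at 542 against 122, 66.8 and 129.8, and Dgat1, which completes triglyceride synthesis, at 432 against 109, 81.6 and 110.5. Dipk2a and 4931406C07Rik completed the set at 593 against 119.5, 102 and 137 and 1146 against 169.7, 229.5 and 265. All of these signals lay above all 3 comparison arrays, by gaps of 3.89-fold (Plk2) to 5.13-fold (Jdp2).

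The largest gaps below the comparison arrays included secreted proteins and receptors, and 8 of the 15 read at the floor with receptor and ligand. Rnase4, a secreted ribonuclease, read 34.8 against 483, 383.5 and 426, a log2 difference of -3.62 (SE 0.351, limma adjusted p = 0.00247). Clec4a2, an inhibitory C-type lectin receptor, read 37.0 against 381, 466 and 306 (-3.36 log2, SE 0.38, adjusted p = 0.00484). Olfml3, a secreted olfactomedin-like protein, read 20.0 against 258.5, 200.3 and 309 (-3.66 log2, adjusted p = 0.00511). These 3 genes stood 8.26-fold or more below the nearest comparison array while staying above the floor. Thbs1, the matrix protein thrombospondin 1, read 7.5 against 192, 198 and 177 and was at least 12.2-fold lower than their mean (adjusted p = 0.00843). Tnfrsf13b, the TACI receptor for BAFF and APRIL, read 10.6 against 211, 286 and 150.4, at least 13.5-fold lower (adjusted p = 0.00906). Plxdc1, Tmem176a, Pgap6, Stap1 and the galactose-binding lectin gene Clec10a were also at the floor there, at least 11.4-, 12.2-, 8.75-, 9.65- and 8.28-fold lower. Further probe sets of Thbs1 and Tmem176a stood below all 3 as well (76.2 against 139, 162 and 162, and 44.8 against 124, 179.8 and 148), whereas that of Pgap6 lay inside the range at 65.9 against 106, 154 and 40.2. Ezr, the membrane and actin linker ezrin, was at least 8.75-fold lower by its brighter probe set (12.4 against 119, 148 and 142). Its other probe set, too dim to be tested, went the other way (78.8 against 21.3, 46.1 and 27.2). Pck2, the mitochondrial form of the gluconeogenic enzyme PEPCK, read 21.0 against 318, 134 and 211 (adjusted p = 0.0176). Ankrd44, 1600014C10Rik and the mitochondrial transporter gene Abcb8 differed by -3.38, -3.54 and -3.14 log2. By the rule that chose them, none of the 15 overlapped with a comparison array.

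**Figure D1:**
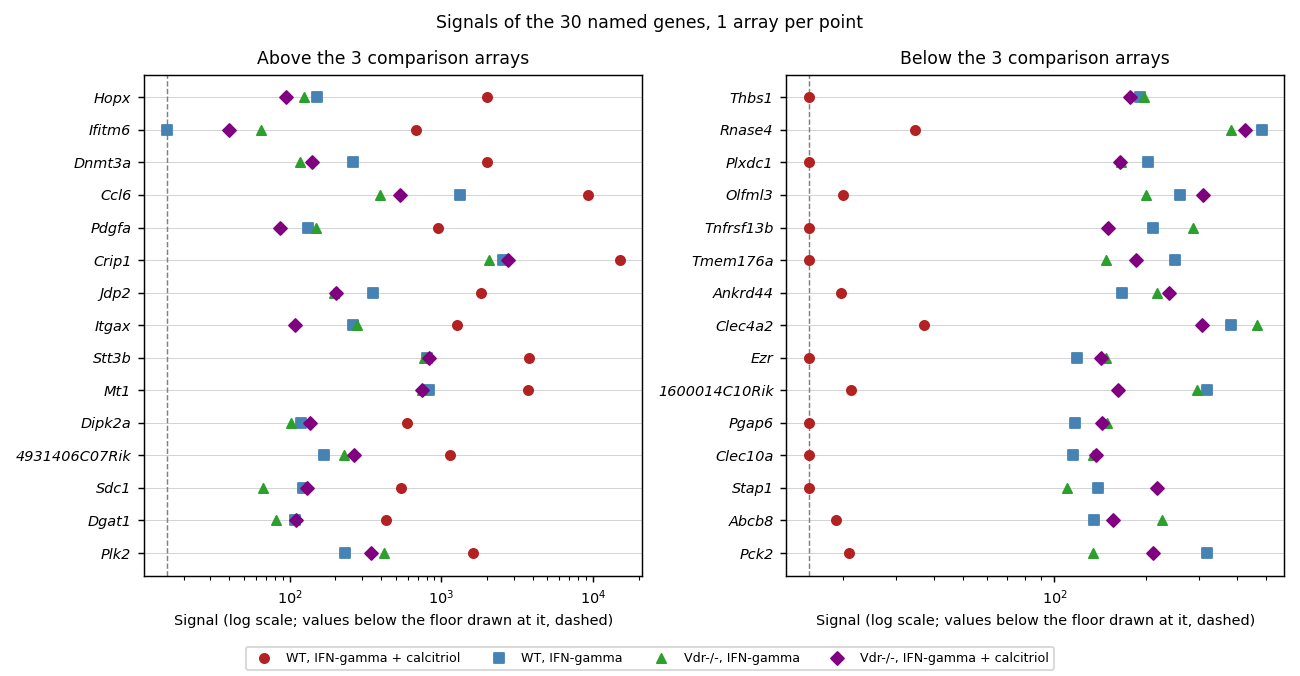
Array signals (log axis, arbitrary scaled units) of the 15 called genes with the largest gap above and the 15 with the largest gap below the comparison arrays; each point is 1 array and signals under the dashed floor of 15.5 are drawn at it. The circle of the wild-type IFN-gamma plus calcitriol array lies apart from the other 3 markers in every gene, as the rule for choosing these genes requires.

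Many receptors of the innate response read lower with receptor and ligand. Of 26 pattern recognition and complement receptor genes reaching the signal, 17 (65.4%) stood below all 3 comparison arrays and 3 (11.5%) above, with a median of -0.68 log2. Over 8727 named genes the shares were 26.5% below and 30.5% above, with a median of 0.03 log2. These shares are also the background for the lists that follow. On the arrays without IFN-gamma, compared in the same way, 13 of 26 genes of this list stood below all 3 and 4 above. The list median there was -0.71 log2, against 0.11 over all named genes. In this list 4 genes were called lower and 1 higher, while 0.998% and 0.405% of 6414 tested genes were. Cd14, the co-receptor for lipopolysaccharide, read 228 against 936, 1037 and 835 (-2.03 log2, SE 0.299, limma adjusted p = 0.0115). Clec7a, the beta-glucan receptor dectin-1, read 1049.6 against 3827, 3034 and 3329 (-1.69 log2, SE 0.242, adjusted p = 0.0105). Clec4d, a lectin that recognises mycobacterial glycolipid, read 282 against 972.5, 901 and 1020.5 (adjusted p = 0.0177). For these genes the 3 comparison arrays lay close together and the array of interest stood 2.89-fold or more below the nearest. C3ar1, the receptor for the complement fragment C3a, read 452 against 2374, 1201 and 1854.5 (adjusted p = 0.0371). Tlr2 read 301 against 728.5, 829.8 and 928 and just missed the threshold (adjusted p = 0.0519). The 2 probe sets of Tlr4, the lipopolysaccharide receptor, disagreed: the brighter read 118 against 100, 108 and 149, inside the range, and the dimmer 36.0 against 222, 174 and 144 (adjusted p = 0.0416). Itgax was the gene called higher, and the complement gene Cfp read 1091.5 against 487, 487 and 536 (adjusted p = 0.114).

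The Fc receptors Fcgr2b and Fcgr1 and the M-CSF receptor were also called lower. Fcgr2b, the inhibitory IgG receptor, read 1832 against 5409.7, 6161 and 5727 (-1.65 log2, SE 0.209, limma adjusted p = 0.00793). All 4 of its probe sets were called lower, with signals 2.80- to 2.99-fold under the nearest comparison array. Fcgr1, the high-affinity IgG receptor, read 558 against 3897, 1538 and 2293.5 (-2.10 log2, adjusted p = 0.0496). The comparison arrays for Fcgr1 were themselves spread, with the wild-type array highest. Csf1r, the M-CSF receptor on which these cells were grown, read 9769 against 18249.7, 18893 and 18432, and the comparison arrays were nearly level. Its log2 difference was -0.92 (SE 0.158, adjusted p = 0.0226), and 3 of 3 probe sets were called, at -1.43 and -1.69 log2 for the others. In the Fc receptor, costimulation and adhesion list, 10 of 24 genes (41.7%) stood below all 3 and 4 above, 2 were called lower and the median was -0.39 log2. Of 26 chemokine and cytokine receptor genes, 15 (57.7%) stood below and 5 above, with a median of -0.60 log2 and Csf1r as the 1 call. Over all named genes 26.5% stood below and 30.5% above, and 0.998% of 6414 tested genes were called lower. Without IFN-gamma the median of this list was -0.29 log2 and that of the Fc receptor, costimulation and adhesion list 0.35. Il3ra and Cx3cr1, receptors for IL-3 and fractalkine, read at the floor (11.4 and 12.5) against 137, 76.2 and 120.5 and 105, 131 and 92.5, without passing the test (adjusted p = 0.114 and 0.102). Ccr2, the monocyte chemokine receptor, read 19.4 against 61.0, 95.2 and 64.8, and Ccr1 26.2 against 71.1, 89.5 and 109, both not called.

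The cells carried macrophage markers on all 4 arrays. Summed over 25 macrophage identity genes, the signal was 148500 with receptor and ligand and 144150 to 168380 on the comparison arrays. Lyz2, lysozyme of myeloid cells, read 19025 against 19936, 16652 and 19326, and Adgre1, the F4/80 antigen, 2671 against 4058, 2610.1 and 3415, so both lay inside the range. Still, 14 of the 25 genes (56.0%) stood below all 3 and 3 genes (Csf1r, Fcgr1 and Cd14) were called lower. Over all named genes 26.5% stood below, and 0.998% of those tested were called lower. Without IFN-gamma 10 of the 25 stood below and the list median was -0.28 log2, against -0.43 with it. Cebpa, a myeloid transcription factor, read 207 against 464, 585 and 534.5 (limma adjusted p = 0.0853). The 13 neutrophil genes, of which 5 reached the signal, summed to 478 against 374 to 396, with Elane, Camp and Cxcr2 at the floor on all 4 arrays. The 15 lymphocyte and NK cell genes summed to 1523 against 2048 to 2637, with Cd3d at the floor. Most of that sum on every array was Ighm alone, at 1206 against 1880, 1808 and 2274, so it follows 1 gene more than the list. The 12 erythroid, megakaryocyte and mast cell genes summed to 542 against 321 to 413, with Kit at the floor. The 10 dendritic cell genes summed to 1273 against 1115 to 1195, but most of that sum on every array was Cd83 alone, so it gives no direction for the list. The 15 stromal genes summed to 469 against 284 to 566. In the dendritic cell list Cd83 read 966 against 704, 748 and 716, Flt3 93.0 against 70.0, 14 and 30.2 and Batf3 83.6 against 164, 273 and 213, and 0 genes of these 5 lists were called. Few were bright enough to be tested, namely 2 dendritic cell, 2 neutrophil, 1 lymphocyte and NK cell, 2 erythroid, megakaryocyte and mast cell, and 1 stromal gene. The part of other cells in the results was not tested. In total RNA of a culture, fewer cells of a type and less RNA per cell cannot be told apart.

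Of 80 tested genes of the interferon lists, 2 were called lower and 0 higher by their brightest probe sets. Over all 6414 tested genes, 0.998% were called lower and 0.405% higher. Most genes of any kind were thus not called, and the lack of calls is no trait of this response. Over 5 interferon lists together, 81 genes reached the signal, of which 36 lay inside the range of the comparison arrays, 32 below and 13 above. The median was -0.29 log2, with 0 called higher by a brightest probe set, the one counted for each gene of a list. Cd74, the invariant chain of MHC class II, read 15207 against 19726, 13362 and 18803, and H2-Ab1, a class II chain, 8834 against 10618, 13105 and 10967. Ciita, the class II master regulator, read 353 against 715, 446 and 635 (-0.73 log2, limma adjusted p = 0.406). In MHC class II presentation, 8 of 11 genes lay inside the range, 2 below and 1 above. Irf1, the transcription factor of this response, read 3349 against 4098, 3711 and 4093, below all 3 by 1.11-fold and not called (adjusted p = 0.68). Cxcl9, a chemokine for activated T cells, was likewise under its comparison arrays at 3527 against 5633, 4311 and 4423, without a call (adjusted p = 0.469). In the MHC class I and immunoproteasome list, 6 of 15 genes stood below and 3 above, with 0 called. There Psmb10, an immunoproteasome subunit, read 1302 against 3057, 2401 and 2448, and the peptide transporter gene Tap1 674 against 979, 1009 and 1015. Of 19 IFN-gamma signalling genes 0 were called. Irf2 read 83.2 against 217, 206 and 222 and Ifngr2, a chain of the IFN-gamma receptor, 452 against 848.5, 897 and 848, while Irf8, a myeloid interferon regulatory factor, stood above at 4496 against 2430.4, 2709.7 and 2493.

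By brightest probe sets, the genes called lower in the interferon lists were Ifit3 and Gbp2b, and the chemokine Cxcl10, an IFN-gamma target, was called lower with them. Cxcl10, a chemokine of the CXCR3 receptor, read 268 against 1209, 1171 and 1279, a log2 difference of -2.18 (SE 0.278, limma adjusted p = 0.00793). Ifit3, an interferon-induced antiviral protein, read 64.4 against 783.5, 338 and 612 (-3.08 log2, SE 0.46, adjusted p = 0.0121). Gbp2b, a guanylate-binding protein also known as GBP1 in mice, read 1829 against 4759, 3909.5 and 4285.5 (-1.23 log2, SE 0.225, adjusted p = 0.0315). In all 3 the array with receptor and ligand was lowest and the comparison arrays lay closest together for Cxcl10 and farthest apart for Ifit3. On no array without IFN-gamma did Gbp2b exceed the floor, so its signal of 1829 was far above that of cells without IFN-gamma. Other GTPases stood lower without being called, such as Gbp8 at 587 against 1155, 1583 and 1386 (adjusted p = 0.0822) and Igtp at 1287.5 against 2701.5, 2157 and 2742 (adjusted p = 0.114). In that list 6 of 11 genes stood below all 3, 2 above, and the median was -0.32 log2. Among 25 type I interferon-stimulated genes, 12 (48.0%) stood below and 2 above, with a median of -0.39 log2 and Ifit3 as the 1 call by a brightest probe set. Samhd1, a nucleotide hydrolase that restricts viruses and a member of this list, was called higher by a dimmer probe set, at 5052 against 2416, 2143 and 2361.5 (1.13 log2, limma adjusted p = 0.0469). Its brightest probe set read 7617 against 5531, 3379 and 5648 (adjusted p = 0.339), and all 4 of its probe sets stood above the range. Usp18, which dampens type I interferon signalling, was 1 of those above (272 against 125, 65.2 and 106, adjusted p = 0.184), and Cmpk2 read at the floor (8.3 against 121, 123 and 60.5, adjusted p = 0.182). Rtp4, an interferon-induced gene outside the lists that was singled out after its values were seen, read 846 against 2747, 3054 and 2657 (-1.73 log2, adjusted p = 0.0096). Outside the lists, Ifitm6, given above, and Ifitm3, of the interferon-induced transmembrane family, were called higher. Ifitm3, which blocks virus entry and was also singled out, read 2793 against 1116, 597.5 and 759 (1.81 log2, adjusted p = 0.0427). Despite the family name, Ifitm6 did not read higher with IFN-gamma on the comparison arrays. It read 8.0, 64.7 and 39.9 on them and 50.0, 104.8 and 51.5 on the matching arrays without IFN-gamma.

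The promoters of these 3 genes are printed because each held a repeat of GAAA with 2 bases between the copies, as in the interferon-stimulated response element bound by interferon regulatory factors. These letters, searched on both strands of the same 250 bases, occurred in 4 of 61 called lower genes (6.56%), the last of them being Tgfbi. They were in 2 of 27 called higher genes (7.41%), Lamp1 and Plk2, and in 936 of 27025 genes of the table (3.46%). Sequences are from RefSeq, build GRCm38.p6, read in the direction of the gene, with matches in capitals. Cxcl10 is at chr5:92348890-92349139 on the minus strand, Ifit3 at chr19:34583279-34583528 on the plus strand, and Gbp2b at chr3:142594597-142594846 on the plus strand.

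Cxcl10: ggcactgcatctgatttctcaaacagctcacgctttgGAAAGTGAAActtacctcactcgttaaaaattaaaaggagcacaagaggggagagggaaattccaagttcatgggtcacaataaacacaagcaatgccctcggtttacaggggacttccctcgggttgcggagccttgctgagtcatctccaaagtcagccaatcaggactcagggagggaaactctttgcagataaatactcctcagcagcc
Ifit3: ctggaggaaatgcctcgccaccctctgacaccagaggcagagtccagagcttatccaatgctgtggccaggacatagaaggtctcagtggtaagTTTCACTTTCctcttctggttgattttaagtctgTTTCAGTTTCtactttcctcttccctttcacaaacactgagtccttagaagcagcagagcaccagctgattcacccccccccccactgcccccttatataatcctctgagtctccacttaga
Gbp2b: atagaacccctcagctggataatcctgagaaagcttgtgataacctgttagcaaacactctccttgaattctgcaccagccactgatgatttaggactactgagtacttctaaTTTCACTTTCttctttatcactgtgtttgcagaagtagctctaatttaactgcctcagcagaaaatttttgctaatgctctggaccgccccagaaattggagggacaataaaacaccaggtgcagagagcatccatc

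Ifit3 held 2 matches, beginning 156 and 122 bases before its start. The single matches of Cxcl10 and Gbp2b began 213 and 137 bases before theirs.

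**Figure D2:**
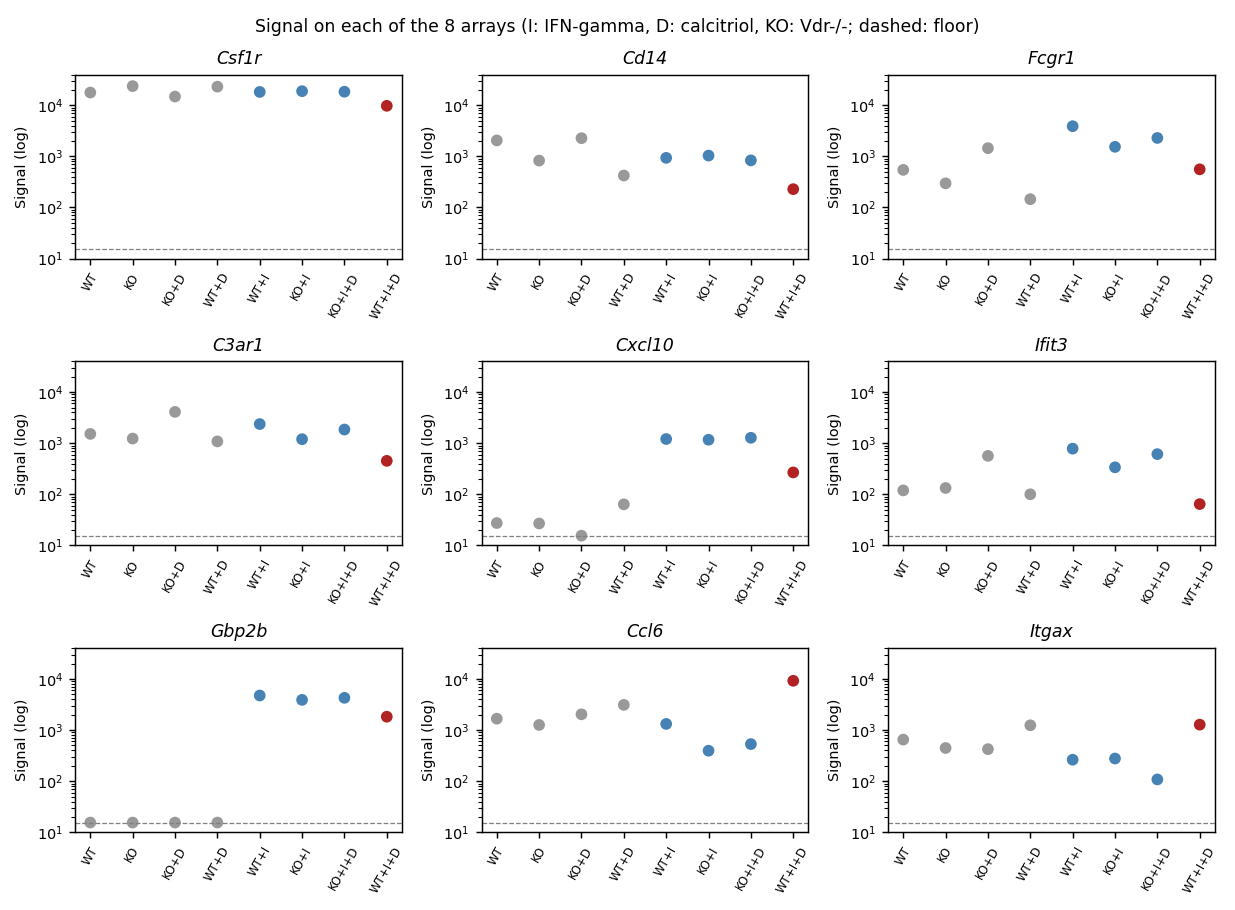
Signals (log axis) of 9 genes on all 8 arrays, with KO for Vdr-/-, I for IFN-gamma and D for calcitriol; each point is 1 array and the dashed line is the floor of 15.5. The red point of the wild-type array with both agents lies below the 3 blue IFN-gamma points for Csf1r, Cd14, Fcgr1, C3ar1, Cxcl10, Ifit3 and Gbp2b, and above them for Ccl6 and Itgax.

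Chemokines went both ways. Beside Ccl6, Ccl4, another CC chemokine, was called higher at 731 against 231, 241 and 166 (1.80 log2, SE 0.363, limma adjusted p = 0.0487). Beside Cxcl10, Cxcl16, a membrane-bound chemokine and scavenger receptor, was called lower at 1035 against 3893, 3635 and 3816 (-1.87 log2, SE 0.224, adjusted p = 0.00576). The second Cxcl16 probe set was called too, at -1.41 log2. Of 17 chemokine genes, 5 stood above all 3 comparison arrays, 7 below and 5 inside, with a median of -0.06 log2. Ccl9, of the same family, read 403 against 194, 145 and 177 (adjusted p = 0.153).

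Of 16 cytokine and growth factor genes, 14 could be tested and 0 were called, and their median was -0.05 log2. Over all 6414 tested genes 0.405% were called higher and 0.998% lower, so 0 calls among so few genes is no trait of a list. Tnf read 161.5 against 240.2, 219 and 189 (limma adjusted p = 0.677). Il10, the anti-inflammatory cytokine, read 2.1, at the floor, against 82.1, 78.5 and 82.3 (adjusted p = 0.279). Igf1, insulin-like growth factor 1, read 416 against 1763, 948 and 1472.5 (-1.70 log2, adjusted p = 0.0536), close to the threshold. Mif, macrophage migration inhibitory factor, stood higher at 2828 against 1161.5, 1131 and 1445 (adjusted p = 0.0664), as did Hbegf, a ligand of the EGF receptor, at 252 against 40, 28.4 and 29.9 (adjusted p = 0.172). Il12b, the shared chain of IL-12 and IL-23, read 73.6 against 5.1, 45.9 and 11.1, which was too dim to be tested. Nos2, the inducible nitric oxide synthase, read 68.0 with receptor and ligand while all 3 comparison arrays were at the floor (5.6, 10.0 and 7.2), at least 4.39-fold higher and untested. Acod1, which makes itaconate, read 2095 against 1610.2, 928 and 1423 (adjusted p = 0.398), and 0 of 13 tested antimicrobial and oxidant genes were called.

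Of the list for the vitamin D receptor axis, 20 genes reached the signal, with 6 above, 9 below and a median of -0.32 log2. Cd14, described above, was the 1 call. Gadd45a, a growth arrest gene, read 312 against 88.7, 97.7 and 112 (1.66 log2, limma adjusted p = 0.0929). Nrip1, a nuclear receptor corepressor, read 514 against 172, 225 and 239 (adjusted p = 0.129). Cyp27a1, a sterol hydroxylase, stood lower at 325 against 802, 917 and 801 (adjusted p = 0.0546). The receptor partner Rxra read 106.1 against 106.3, 173.6 and 123.9 by its brighter probe set (adjusted p = 0.817).

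Many genes of cell division and mitochondrial respiration stood above the comparison arrays, although 1 gene of these lists passed the test. Of 34 cell cycle genes, 22 (64.7%) stood above all 3 comparison arrays and 3 below, with a median of 0.88 log2, and 0 of the 25 that could be tested were called. Over all 6414 tested genes 0.405% were called higher, so 0 calls among 25 is no trait of the list. Of the 34, 4 reached the signal only on the array of interest. Among the other 30, 18 stood above and 3 below, with a median of 0.77 log2, while over 8156 genes chosen the same way 25.6% stood above and 28.3% below, with a median of -0.02. Without IFN-gamma the median of this list was 0.11, equal to that over all named genes. Top2a, the topoisomerase of dividing cells, read 360.3 against 147, 143 and 145.5 (1.31 log2, SE 0.355, limma adjusted p = 0.121). Cdk1, the mitotic kinase, read 378 against 116, 168.5 and 139 (adjusted p = 0.116), and Ccnd2, a G1 cyclin, 327 against 98.8, 62.8 and 93.4 (adjusted p = 0.0757). Rrm2, a ribonucleotide reductase subunit, read 464 against 219.6, 174 and 171 (adjusted p = 0.121). These 4 genes stood at least 2.11-fold above the highest comparison array. Of 25 mitochondrial respiration and TCA cycle genes, 17 (68.0%) stood above and 3 below, with a median of 0.62 log2. Idh1, the cytosolic NADP isocitrate dehydrogenase, was the 1 call at 1709 against 594, 568 and 523 (1.61 log2, SE 0.286, adjusted p = 0.0277). Cox5a, a cytochrome oxidase subunit, read 6014 against 2599, 2966 and 3007 and just missed it (adjusted p = 0.051). Ndufa1, of complex I, read 4679 against 1920.3, 2511 and 2357.5 (adjusted p = 0.0757).

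Glycolysis genes showed the same tendency with 0 calls, as 12 of 21 (57.1%) stood above and 3 below, with a median of 0.42 log2. Over all named genes 30.5% stood above and 26.5% below. Only 0.405% of tested genes were called higher, so 0 calls here is no trait of the list. Ldha, lactate dehydrogenase A, read 4945 against 2370.1, 853 and 1708 (limma adjusted p = 0.119), and its comparison arrays were widely spread. Hif1a, the hypoxia-inducible factor, read 706 against 375.5, 360.4 and 336 (adjusted p = 0.184). Housekeeping genes had a median of -0.01 log2 over 11 genes with 0 called, and Actb read 15358 against 13934, 17984 and 14941. Pgk1, which is in both lists, stood above at 2510.4 against 1232, 1369.7 and 1525.

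Lipid transport genes were among those called lower. Pltp, the phospholipid transfer protein, read 332.5 against 1301, 1484.5 and 1443 (-2.08 log2, SE 0.273, limma adjusted p = 0.00906). Abca1, the cholesterol exporter, read 239 against 717, 1248 and 831 (-1.92 log2, adjusted p = 0.0368), and Mylip, which degrades the LDL receptor, 232 against 625, 999.7 and 882 (adjusted p = 0.0377). Nr1h3, the liver X receptor alpha, read 37.8 against 78.4, 97.9 and 115 and was not called (adjusted p = 0.387). Abcg1, another cholesterol exporter, read 1072 against 1292, 1302 and 1372.5 (adjusted p = 0.674). Over the 27 lipid genes, 10 stood above, 9 below and the median was 0.13 log2. Lpl, lipoprotein lipase, was called by the dimmer of its probe sets (1269 against 3993, 3408 and 3137, adjusted p = 0.019). Its brighter one read 7209 against 10244, 14020.4 and 12555 (adjusted p = 0.128).

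**Figure D3:**
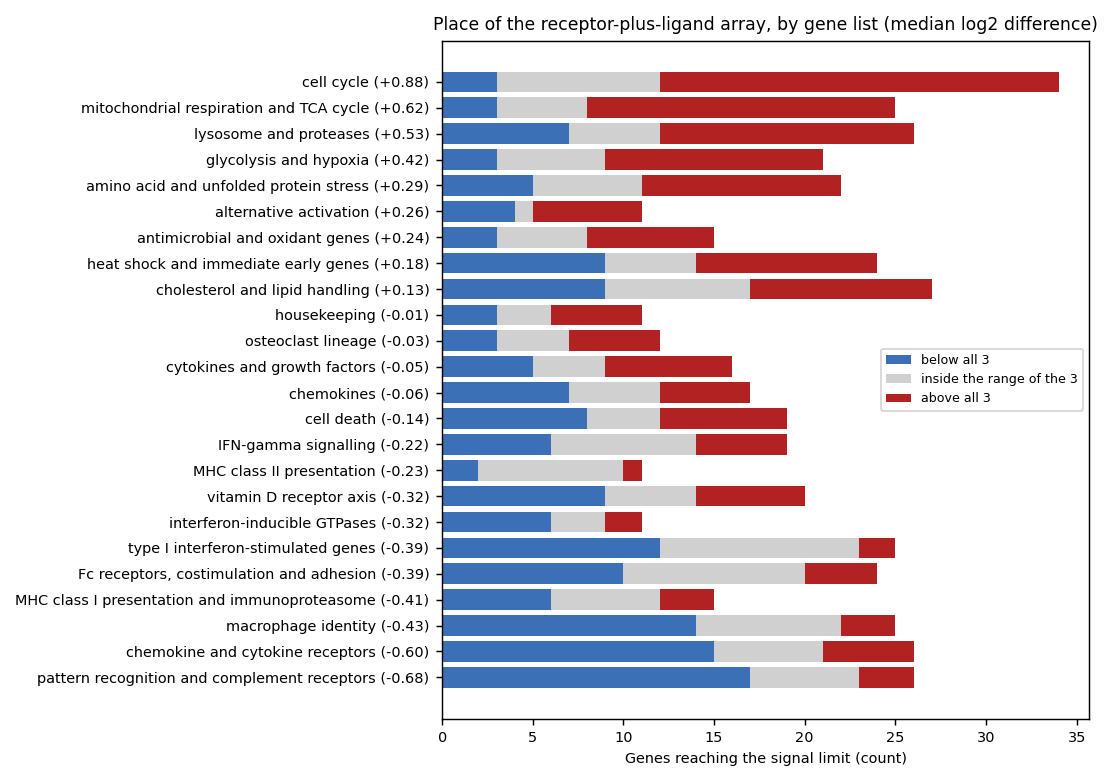
Number of genes (x axis) of each list that reached the signal and stood below, inside or above the range of the 3 comparison arrays on the wild-type IFN-gamma plus calcitriol array; the median log2 difference is beside each name. Cell cycle (0.88) and mitochondrial genes (0.62) are at the top and pattern recognition receptors (-0.68) at the bottom, while over all 8727 named genes 30.5% stood above and 26.5% below.

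By brightest probe sets, 1 of 22 tested lysosome and protease genes was called higher and 1 lower. Calls were 1 higher and 2 lower among 23 tested heat shock and immediate early genes. They were 0 and 1 among 19 amino acid and unfolded protein stress genes, and 1 and 1 among 10 alternative activation genes. Over all 6414 tested genes 0.405% were called higher and 0.998% lower. Lamp1, a lysosomal membrane protein, read 13516.5 against 6325, 6237 and 5791 (1.14 log2, SE 0.186, limma adjusted p = 0.0177), and Mmp14, a membrane metalloprotease, 257 against 769, 1269 and 908 (-1.90 log2, adjusted p = 0.0307). Timp2, an inhibitor of metalloproteases in the lysosome and protease list, was called lower by 2 of its 5 tested probe sets (-2.13 and -1.63 log2). Its brightest read 1911 against 2151, 3610.1 and 3129.7 (adjusted p = 0.433). In that list of 26, 14 genes stood above, 7 below, and the median was 0.53 log2. Hsph1, a heat shock protein of the HSP110 family, read 789 against 114, 223 and 169 (2.28 log2, adjusted p = 0.035). The immediate early gene Fos read 102 against 473, 574 and 438 (-2.27 log2, adjusted p = 0.0121), and the zinc finger factor Klf6 340.3 against 1145, 946 and 997 (-1.59 log2, adjusted p = 0.031). In the list of 24 heat shock and immediate early genes, 10 stood above, 9 below and the median was 0.18 log2. Tgm2, tissue transglutaminase, read 9054 against 3798, 4918 and 4116 (1.09 log2, adjusted p = 0.0487). Mrc1, the mannose receptor, read 348 against 76.0, 150.2 and 128 (adjusted p = 0.143) and Egr2 308 against 82.7, 77.6 and 54.2 (adjusted p = 0.0737), both above without a call. With Clec10a lower, the 11 alternative activation genes had 6 above, 4 below and a median of 0.26 log2. Pck2 was the 1 call among 22 amino acid and unfolded protein stress genes, of which 11 stood above, 5 below and whose median was 0.29 log2. The 12 osteoclast lineage genes (median -0.03 log2) and the 19 cell death genes (-0.14) held 0 calls among 9 and 17 tested, and Casp4, an inflammatory caspase, stood lower at 99.7 against 361.5, 274 and 354 (adjusted p = 0.0518).

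Other called genes outside the named set are given here and were singled out after their values were seen. Tgfbi, a matrix protein induced by TGF-beta, read 745.5 against 3195, 3405.5 and 3268 by its brightest probe set (-2.14 log2, SE 0.232, limma adjusted p = 0.0036). Its 4 probe sets were all called, at -2.65 to -1.90 log2. Vim, the intermediate filament vimentin, read 3968 against 10639.7, 12060.3 and 9784 (-1.44 log2, SE 0.195, adjusted p = 0.00946), and 3 of 3 probe sets were called. Coro1a, an actin-binding protein of leukocytes, read 302 against 1714, 1425 and 1818 (-2.44 log2, SE 0.281, adjusted p = 0.00511), with 2 of 2 probe sets called. The array with receptor and ligand was the lowest of the 4 for each of these probe sets. Ms4a6b and Ms4a6c, of the membrane-spanning 4A family, read 291 against 1502, 1816 and 1738 and 291 against 1629.6, 1226 and 1621 (adjusted p = 0.0036 and 0.00793). S100a4, a calcium-binding protein, read 146 against 622, 714 and 815 (adjusted p = 0.00969). On the side above, Tom1, an endosomal sorting protein, read 1688 against 599, 502 and 552 (adjusted p = 0.0293). Anpep, the aminopeptidase CD13, read 909.5 against 287, 227 and 332.5 (adjusted p = 0.0495).

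Some genes were picked because all 3 comparison arrays were at the floor, so their signal on the array of interest alone follows from the choice. In 63 genes with a symbol all 3 comparison arrays were at the floor and the array of interest at least 1 log2 above it. This held for 121 of the 14947 probe sets reaching the signal. The 63 genes were too dim to be tested, and their values rest on 1 array. The brightest of these genes, singled out for their signals, was Cd24a, a surface glycoprotein, at 416.6 against 11.1, 2.0 and 5.8, which is at least 26.9-fold higher. These are values of 1 of its 3 probe sets. Sgo1, the shugoshin that protects centromere cohesion, read 243.7 against 9.1, 12.9 and 6.0 (at least 15.7-fold). Ephx2, soluble epoxide hydrolase, read 159.3 against 10.7, 14.2 and 7.9 (at least 10.3-fold). Hey1, a transcriptional repressor of the Notch pathway, read 146.4 against 7.4, 10.5 and 3.0 (at least 9.45-fold). Without IFN-gamma, Cd24a and Hey1 again read highest on the wild-type calcitriol array, at 301.8 and 254.4, with 15.6 to 70.7 and 28.3 to 77.8 on the other arrays. Sgo1 read 23.7 there. Dpep3, at 162.3 against 7.2, 3.7 and 11.2 with IFN-gamma, read 62.6 there and was highest on the array labelled untreated Vdr-/- (96.7). In the other direction, 204 genes read at the floor with receptor and ligand and at least 1 log2 higher on every comparison array. That held for 380 of the 14947 probe sets.

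The same comparison was then made on the 4 arrays without IFN-gamma, which share no array with the first. There the wild-type calcitriol array was set against the arrays labelled untreated wild type, untreated Vdr-/- and Vdr-/- with calcitriol, in that order. Exchanging the untreated labels changes none of these values against the range. Genes higher with receptor and ligand under IFN-gamma tended to stand higher here too. Of 39 probe sets called higher under IFN-gamma that reached the signal, 35 (89.7%) stood above all 3 arrays and 0 below, while 29.0% of 10377 probe sets stood above. Hopx read 410.5 against 160.1, 242 and 109, Crip1 12180.4 against 4334, 6883 and 3964 and Dnmt3a 1749.8 against 379.6, 459 and 211. Ccl6 read 3117 against 1674, 1262 and 2038, Itgax 1243 against 653, 447 and 424 and Mt1 3824 against 1663, 2006 and 1079.7. Each of these was highest on the wild-type calcitriol array. Jdp2 barely exceeded the nearest array, at 171.5 against 157, 161 and 30.

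Genes called lower under IFN-gamma were less uniform. Of 104 such probe sets, 51 (49.0%) stood below all 3 arrays without IFN-gamma, against 26.9% of 10377, and 13 (12.5%) stood above, against 29.0%. Cxcl16 read 359 against 2075, 1367.5 and 2352, Cd14 422 against 2052, 826 and 2272 and Fos 449.8 against 1857, 1698 and 1880.1, all lowest with receptor and ligand. Others did not keep the order. Csf1r read 23146 against 17765, 23761 and 14814 by its brightest probe set, Clec7a 9467 against 5639.8, 5786 and 4233.5 and Fcgr2b 5116 against 4053, 4922 and 3020.1. Clec7a and Fcgr2b were thus highest, not lowest, on the wild-type calcitriol array, and Cxcl10 was highest as well at 63.7 against 27.4, 26.9 and 3.6. Across 9686 probe sets the log2 differences of both sets of arrays correlated at Pearson's r of 0.2 and Spearman's rho of 0.207, and these points share their arrays. By at least 1 log2, 80 probe sets stood above in both sets (16.6% of 482 and 14.5% of 552) and 90 below in both (11.7% of 769 and 8.65% of 1041). Another 15 stood above with IFN-gamma and below without it, and 29 the reverse. These overlaps were counted over the 13406 probe sets that reached the signal in both sets. Of these, 552 stood above and 1041 below without IFN-gamma. Over the wider set of 16517 probe sets reaching the signal without IFN-gamma, 7.24% stood above and 7.12% below by that distance. By any distance, 33.2% and 22.3% did.

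The set without IFN-gamma held arrays of uneven RNA quality. The Gapdh ratio of its wild-type array with calcitriol was 7.67 and that of the one with the untreated Vdr-/- label 4.82, against 1.11 and 0.853 on the others, and its part in these values was not tested. Limma called 64 of 11168 probe sets there (0.573%), 1 higher (0.00895%) and 63 lower (0.564%). The difference between both sets of arrays was called for 14 of 10818 probe sets (0.129%), all with a larger value under IFN-gamma. In all 14 the wild-type calcitriol array without IFN-gamma was the lowest of its 4, and in 6 of them the IFN-gamma plus calcitriol array lay inside the range of its comparison arrays. None of the genes named above as called with IFN-gamma was among them. For Cxcl10 and Clec7a the difference was -3.68 and -2.56 log2, both with limma adjusted p = 0.0715.

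**Figure D4:**
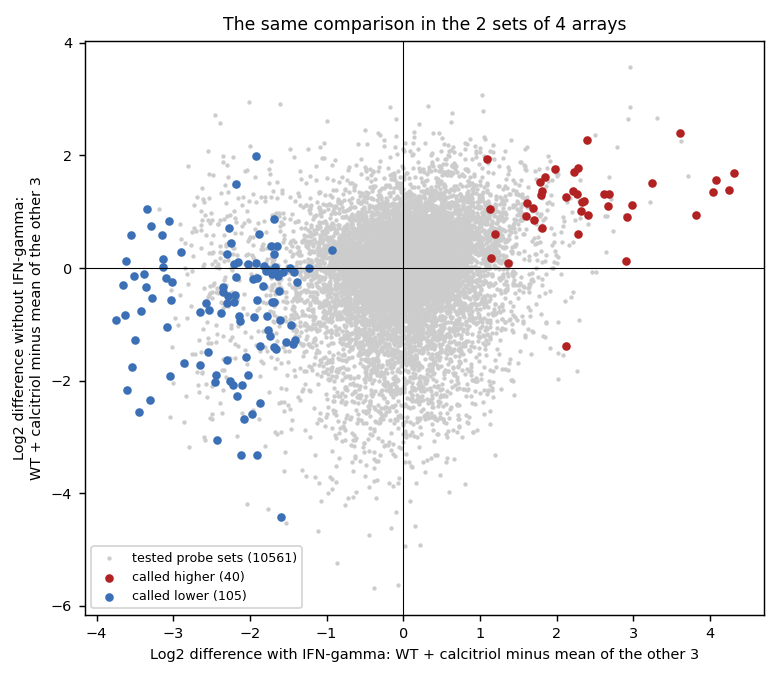
Log2 difference of the wild-type calcitriol array from the mean of its 3 comparison arrays, with IFN-gamma (x axis) and without it (y axis), 1 point per probe set; called probe sets of the IFN-gamma arrays are coloured. Most of the 40 called higher lie above 0 on the y axis too, whereas the 105 called lower spread to both sides of it.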

How the data were processed

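The authors deposited linear array intensities (signals) for 22690 probe sets on 8 arrays; 64 control probe sets were left out. Neither labels nor file headers name the software, the scaling or any detection call; from the deposited values, every array has a 2% trimmed mean of 150.07 to 150.08. Platform annotation gave 20380 probe sets 1 gene, 691 several and 1555 none.

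Signals under the 25th percentile (15.5) were set to it and log2 was taken. Each probe set on the wild-type IFN-gamma plus calcitriol array was set against the range of the other 3 IFN-gamma arrays, where any of the 4 reached the pooled median (59.1). limma 3.58.1 in R 4.3.3 (lmFit and eBayes with an intensity trend) compared the array with the mean of the 3, with Benjamini-Hochberg adjustment over the probe sets whose mean signal reached the pooled median, with no more than 1 of the 3 at the floor. This filter had been set in an earlier analysis after seeing these data. p-values measure only the spread between these samples, which may be technical. An array's signals carry no count, so the number of arrays limits the precision.

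On simulated data with 50 changed probe sets per size, the IFN-gamma comparison recovered 16% at 1 log2, 60% at 2, 82% at 3 and 96% at 4, with 16 false calls. The simulated arrays had independent noise of equal spread around 1 mean per probe set, taken from the real fit. They held no genotype or calcitriol effect among the comparison arrays and no floor on the drawn values, so these rates hold for that setting only. Named genes were the 15 called genes with the largest gap on each side, by their brightest probe set, 10 fixed genes (Cd14, Cd74, Ciita, Cxcl9, Cyp24a1, Il12b, Irf1, Nos2, Tnf, Vdr), and at most 5 from each of 29 lists. Members, lists and tests were chosen with earlier results of these data known. Alternatives changed the floor, filter, normalization, variance model and arrays used. Figures were drawn with matplotlib 3.10.9 in Python 3.11.15.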

Additional observations from a re-analysis of the deposited data

Results flagged for a closer look

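The difference between the sets of arrays with and without IFN-gamma was called by limma for 14 probe sets, and 13 of them have a single gene name. In log2 units, with IFN-gamma minus without, it was 5.57 for Cd99, 4.97 for Arhgap9, 4.73 for Itgb1, 4.64 for Surf4, 4.46 for Caprin1, 4.38 for Ncf1 and 4.25 for Bin1. It was 4.05 for Arih1, 3.74 for Hnrnpab, 3.20 for Aldh2 and 3.01 for Apoe, and the probe sets of H2-Ab1, an MHC class II chain, gave 5.31 and 3.36. In all 14 the wild-type calcitriol array without IFN-gamma was the lowest of its 4, and the Gapdh ratio of 3' to 5' signal on that array was 7.67. Apoe, the apolipoprotein, read 3185 there against 34252.1, 39069.7 and 28060.2 on the other arrays without IFN-gamma. In 6 of the 14 the IFN-gamma plus calcitriol array lay inside the range of its comparison arrays. The part of RNA quality in these values was not tested.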

How the results depend on the processing

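Under the alternatives run on the IFN-gamma arrays, no probe set called in the reported analysis changed sign. The limma calls, 40 higher and 105 lower, became 881 higher and 73 lower with no signal filter, 13 and 27 with the spread taken from all 8 arrays, and 300 and 480 with the Gapdh ratio as a covariate. The floor at the 40th percentile gave 71 higher and 139 lower. With no intensity trend 0 and 0 were called, against 1272 at an unadjusted p under 0.05 in limma. Leaving out each comparison array gave 6 to 271 higher and 4 to 407 lower, on 1 residual degree of freedom, and the lowest counts came without the Vdr-/- array with IFN-gamma and calcitriol. Of the 145 calls, 133 were shared with quantile normalization, 59 with no filter, 37 with the 8-array spread and 10 without that array.

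Counts at least 1 log2 outside the range, 721 higher and 848 lower, became 461 and 360 with the floor at the 40th percentile, 199 and 281 with the filter at the 75th percentile, and 178 and 156 with a distance of 2 log2. With no filter 1209 stood higher and 941 lower, and with any distance 4529 higher and 3907 lower. Leaving out each comparison array gave 1050 to 1171 higher and 1238 to 1300 lower.

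Without IFN-gamma, 1 higher and 63 lower became 882 and 32 with no filter, and 19 and 333 without the array labelled Vdr-/- untreated, an alternative chosen after seeing the data. Without that array the difference between the sets was called for 156 higher and 27 lower, against 14 and 0. For these changes the cause was not tested. No paired analysis was possible because each group held 1 array and the labels give no replicate numbers. Signals at the floor have no order, which limits the dimmest genes.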
